A study of Homo sapiens with 6 samples.

Results

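Siglecs are cell-surface lectins of the immunoglobulin superfamily that bind sialic acid, the sugar that caps many glycans on cell surfaces and secreted proteins. Most carry inhibitory tyrosine motifs in their tail that recruit the phosphatases encoded by PTPN6 and PTPN11 when phosphorylated by Src family kinases. SIGLEC14 lacks such motifs and signals through the activating adaptor encoded by TYROBP, and SIGLEC1 (sialoadhesin, CD169) has a short tail and acts mainly in adhesion and capture of sialylated particles on macrophages. The set described here comprises 10 receptors, SIGLEC1, CD33, CD22, SIGLEC5, SIGLEC6, SIGLEC7, SIGLEC9, SIGLEC10, SIGLEC11 and SIGLEC14, found by matching the Ensembl identifiers of the deposited table to these symbols. The match gave 11 of 60612 rows, because SIGLEC5 is the symbol of 2 identifiers, ENSG00000105501 and ENSG00000268500. All 11 rows passed the filter on low counts. The members were chosen by their identity as Siglecs and with the CPM of these libraries known, among them the level of SIGLEC1 in the libraries numbered 3, so levels by replicate number are given as a description without a test.

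RNA was sequenced from U937 cells, an established human myeloid line that the labels call acute myeloid leukemia and wild type. Cells in RPMI-1640 medium without serum received B2, a compound known only by that code name, at 1 µM for 36 h, or DMSO, its vehicle, for the same 36 h. Each group has 3 libraries with replicate numbers 1 to 3, and the title of the series names S100A9 as the target. Whether replicates came from separate cultures is not in the labels. Each p-value therefore reflects only the spread among these libraries, and that spread may be technical.

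Library totals ran from 61150740 to 78431054 counts. The libraries numbered 3 stood apart from the other 4 in both groups. The summed level of 15 macrophage markers in CPM (counts scaled to library size with TMM factors) was 1291 and 1461 in replicate 3 of B2 and DMSO and lay between 135 and 213 elsewhere. Of its 11 members past the filter, all 11 were higher in both libraries numbered 3 than in the other 4, while MRC1 was at 0 counts throughout. The summed level of 23 interferon-stimulated genes was 3515 and 3654 CPM in B2 and DMSO replicate 3, against 494 to 600.5 CPM. The early myeloid genes CTSG, ELANE and AZU1 were abundant in every library. Of 8 myeloid progenitor markers 1 was higher and 2 were lower in both libraries numbered 3 (12.3% and 12.1% of all tested genes). The T cell receptor chains CD3D, CD3E and CD3G were at 0 counts in every library. The list of 6 T cell markers summed to 3.62 and 4.83 CPM in replicate 3 of B2 and DMSO, and to 0.312 to 0.986 CPM elsewhere. Of this list 2 genes passed the filter, both at least 2-fold higher on average in the libraries numbered 3 (6.14% of all tested genes). For SIGLEC1, SIGLEC9 and SIGLEC11 the comparison of B2 with DMSO is also given without the libraries numbered 3.

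SIGLEC5 and SIGLEC14, and SIGLEC11 and its neighbour SIGLEC16, are so alike in sequence that their counts cannot be fully separated. The coding sequences of SIGLEC5 and SIGLEC14 in GENCODE 29 are identical over their first 642 bases, which encode the sialic acid-binding end of both proteins. The stretch around the end of that identity is shown because reads from it can belong to either gene, with the first differing base, A643G from SIGLEC5 to SIGLEC14, in capitals (coding bases 601 to 690, counted from 1 at the start codon).
SIGLEC5: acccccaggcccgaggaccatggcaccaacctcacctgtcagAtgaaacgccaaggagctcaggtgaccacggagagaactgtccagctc
SIGLEC14: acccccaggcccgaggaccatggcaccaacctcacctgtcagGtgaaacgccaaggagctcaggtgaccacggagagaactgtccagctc
Of all windows of 100 bases in the SIGLEC14 transcripts, 29.05% also occur in SIGLEC5 transcripts. For ENSG00000268500, called AC018755.2 in GENCODE 29, 100% of the windows occur in SIGLEC5 transcripts. The values of these 3 rows are therefore uncertain, and their sum is reported beside them. SIGLEC11 shares 16.6% of its windows with its neighbour SIGLEC16, which is annotated as a transcribed pseudogene. Other genes on the same strand also overlap 12.7% of the exon bases of SIGLEC11. No window of this length in SIGLEC1, CD33, CD22, SIGLEC6, SIGLEC7 or SIGLEC9 occurred in any other of the 16 Siglec rows examined, and 1.55% of those of SIGLEC10 did.

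SIGLEC11 and SIGLEC16 lie on opposite strands of chromosome 19, and the bases before their RefSeq start sites also share a long stretch. Both windows are printed because both transcripts were highest in the libraries numbered 3, with the longest identical run of 134 bases in capitals (RefSeq, GRCh38.p14, each 250 bases read 5′ to 3′ along the gene). The SIGLEC11 window is chr19:49961173-49961422 on the minus strand, and the SIGLEC16 window is chr19:49969414-49969663 on the plus strand.
SIGLEC11: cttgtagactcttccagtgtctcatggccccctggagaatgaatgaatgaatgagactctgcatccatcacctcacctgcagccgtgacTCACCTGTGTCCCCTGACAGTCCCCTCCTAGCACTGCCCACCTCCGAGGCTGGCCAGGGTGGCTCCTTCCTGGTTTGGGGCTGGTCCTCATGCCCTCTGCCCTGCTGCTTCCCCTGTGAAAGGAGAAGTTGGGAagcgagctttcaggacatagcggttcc
SIGLEC16: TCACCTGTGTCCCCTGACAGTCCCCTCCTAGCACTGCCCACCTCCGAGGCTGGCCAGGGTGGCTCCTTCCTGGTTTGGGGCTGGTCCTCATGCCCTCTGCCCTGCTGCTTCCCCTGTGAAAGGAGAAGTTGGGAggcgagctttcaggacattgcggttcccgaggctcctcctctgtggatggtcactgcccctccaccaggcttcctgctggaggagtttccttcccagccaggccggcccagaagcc

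SIGLEC1 (chromosome 20, 3686970 to 3707128, minus strand) separated the libraries by replicate number far more than by treatment. It read 3.43, 2.79 and 478 CPM in B2 replicates 1, 2 and 3, and 3.78, 2.92 and 519 CPM in DMSO replicates 1, 2 and 3. Both libraries numbered 3 were thus high and the other 4 low, with no overlap, and within each number the treatments lay close together. The mean of the libraries numbered 3 was 154-fold that of the other 4 (154-fold within B2 and 155-fold within DMSO), a log2 ratio of 7.27. Of 17224 genes tested, 5 had a larger ratio. The underlying counts were 204 to 253 in the low libraries and 28967 and 40301 in the high ones. In these bulk libraries more cells with SIGLEC1 and more SIGLEC1 RNA per cell cannot be told apart.

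The genes closest to SIGLEC1 across the 6 libraries, by the root mean square difference of centred log2 CPM, were SLCO2B1 (0.40), the lipopolysaccharide co-receptor CD14 (0.41) and the complement subunit gene C1QC (0.42). CD14 read 0.772, 0.616 and 121 CPM across B2 replicates 1 to 3, against 1.29, 0.361 and 109.6 CPM across their DMSO counterparts, in order of replicate number. IFI27, an interferon-stimulated gene, had a log2 ratio of 7.37 between the libraries numbered 3 and the others, and IFI6 one of 4.36. SIGLEC1 is itself known as an interferon-inducible macrophage gene. The part of the macrophage markers and interferon-stimulated genes in its level was not tested.

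**Figure D1:**
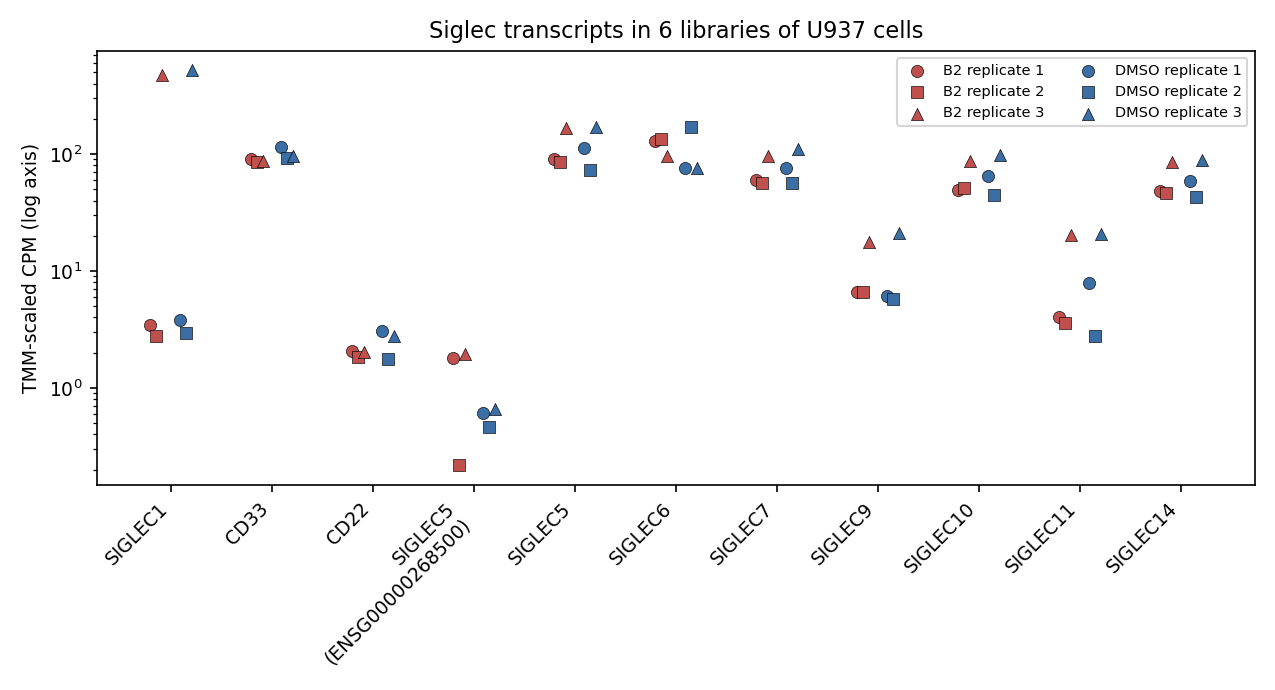
TMM-scaled CPM (log axis) of the 11 Siglec rows in each library, with B2 in red, DMSO in blue and marker shape for the replicate number. Both triangles of SIGLEC1 (478 and 519 CPM) lie far above its other 4 points (2.79 to 3.78 CPM), while the 6 points of CD33 span 86.0 to 115 CPM.

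SIGLEC11 and SIGLEC9 were the other receptors more than 2-fold higher in the libraries numbered 3. SIGLEC11 (chromosome 19, 49948985 to 49961172, minus strand), a receptor of macrophages and microglia, read 4.08, 3.56 and 20.3 CPM in B2 replicates 1, 2 and 3, and 7.90, 2.78 and 20.7 CPM in the DMSO replicates. Both libraries numbered 3 were above all others, and DMSO replicate 1 was the highest of the remaining 4. The log2 ratio was 2.16, with a fold of 5.33 within B2 and 3.87 within DMSO. SIGLEC16, with which SIGLEC11 shares sequence, had a log2 ratio of 2.06 and read 8.82 and 10.2 CPM in the libraries numbered 3 against 1.45 to 2.87 CPM. SIGLEC9 (chromosome 19, 51124908 to 51136651, plus strand), an inhibitory receptor of monocytes and neutrophils, read 6.64, 6.64 and 17.7 CPM across B2 replicates 1 to 3, against 6.11, 5.77 and 21.1 CPM across their DMSO counterparts. Its 4 low libraries lay within 5.77 to 6.64 CPM, and its log2 ratio was 1.63.

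SIGLEC5, SIGLEC7, SIGLEC10 and SIGLEC14 were also higher in both libraries numbered 3 than in all 4 others, at folds between 1.67 and 1.86. SIGLEC5 (ENSG00000105501, chromosome 19, 51611927 to 51645545, minus strand), an inhibitory receptor of myeloid cells, read 90.8, 85.3 and 168 CPM across B2 replicates 1 to 3, against 113, 73.6 and 169 CPM across their DMSO counterparts. Its activating partner SIGLEC14 (chromosome 19, 51642553 to 51646801, minus strand) read 48.5, 46.1 and 86.0 CPM across B2 replicates 1 to 3, against 59.2, 43.3 and 89.3 CPM across their DMSO counterparts. The summed locus of both genes and ENSG00000268500 read 141, 132 and 256 CPM across B2 replicates 1 to 3, against 172, 117 and 259 CPM across their DMSO counterparts, a log2 ratio of 0.87. In all 3 readings the libraries numbered 3 were highest and DMSO replicate 2 was lowest. SIGLEC7 (chromosome 19, 51142299 to 51153526, plus strand), known from natural killer cells and monocytes, read 59.7, 56.8 and 96.8 CPM across B2 replicates 1 to 3, against 75.8, 56.1 and 111 CPM across their DMSO counterparts. SIGLEC10 (chromosome 19, 51410021 to 51417803, minus strand), a receptor for CD24, read 49.2, 51.3 and 87.1 CPM across B2 replicates 1 to 3, against 65.5, 44.99 and 97.9 CPM across their DMSO counterparts. SIGLEC10 and SIGLEC14 were each among the other's 3 closest genes, with CD300A, an inhibitory receptor of myeloid cells, and DDRGK1 as the other two for both. Genes on the opposite strand overlap 22.7% of the exon bases of SIGLEC7, 22.6% of those of SIGLEC10 and 16.5% of those of SIGLEC6, and the strand setting of the counting is not given in the sources used here.

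CD33, CD22 and SIGLEC6 did not share that pattern. CD33 (chromosome 19, 51225064 to 51243860, plus strand), the myeloid antigen targeted by leukemia antibodies, read 89.9, 86.0 and 88.1 CPM in B2 replicates 1, 2 and 3, and 115, 93.3 and 97.1 CPM in the DMSO replicates. Its log2 ratio between the libraries numbered 3 and the others was -0.05. CD22 (chromosome 19, 35319261 to 35347355, plus strand), the B cell Siglec, read 2.07, 1.83 and 2.03 CPM across B2 replicates 1 to 3, against 3.05, 1.78 and 2.76 CPM across their DMSO counterparts, which is 123 to 214 counts per library. Its log2 ratio was 0.13. SIGLEC6 (chromosome 19, 51519525 to 51531856, minus strand), known from placenta, mast cells and B cells, read 130.1, 134 and 96.6 CPM across B2 replicates 1 to 3, against 76.6, 170.4 and 76.6 CPM across their DMSO counterparts. It was highest in DMSO replicate 2, where the 4 receptors of the preceding paragraph were lowest, and its log2 ratio was -0.56. The gene closest to it across the libraries was STRAP, at a root mean square difference of 0.06. The row ENSG00000268500 was at most 1.96 CPM, with 132, 16 and 119 counts in the B2 libraries and 34, 36 and 51 with DMSO.

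Counting rows, 7 of 11 (63.6%) were higher in both libraries numbered 3 than in all 4 others and 0 were lower, where 12.3% and 12.1% of the 17224 tested genes were higher and lower. At least 2-fold higher were 3 of 11 (27.3%) and 0 were at least 2-fold lower, where 6.14% and 6.82% of tested genes were. The members were chosen with this contrast known, so the counts only describe them. The receptors closest to the 2-fold line were SIGLEC9 inside it, at a log2 ratio of 1.63, and SIGLEC5 outside it, at 0.89. Without DMSO replicate 1 SIGLEC5 was at 1.07, past the line, and ENSG00000268500 was past it without B2 replicate 1 (1.62) or DMSO replicate 3 (1.35), so the count of 3 depends on these libraries. Across the other scalings, counts divided by 4 and each library left out, the ratio of SIGLEC1 stayed between 7.21 and 7.40.

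Length-corrected levels gave a different order of receptors in the 2 sets of libraries. Per kilobase of exon (GENCODE 29), the means over the 4 libraries numbered 1 and 2 were 49.7 CPM for SIGLEC6, 38.4 for SIGLEC5, 30.4 for SIGLEC7, 23.7 for SIGLEC14, 16.1 for CD33 and 14.4 for SIGLEC10. Those of SIGLEC9, SIGLEC11, SIGLEC1 and CD22 were 2.48, 1.44, 0.410 and 0.354 CPM per kilobase. The ranges of neighbours in this order overlapped, except for SIGLEC14 over CD33, SIGLEC10 over SIGLEC9 and SIGLEC11 over SIGLEC1. All 4 values of SIGLEC14 (20.8 to 28.4), for example, were above all 4 of CD33 (14.4 to 19.2). Within each of the 4 libraries SIGLEC5 was also above SIGLEC7, SIGLEC7 above SIGLEC14 and CD33 above SIGLEC10. In DMSO replicate 1 the order was reversed for SIGLEC6 and SIGLEC5 (29.8 and 47.7) and for SIGLEC9 and SIGLEC11 (2.41 and 2.49). It was also reversed there for SIGLEC1 and CD22 (0.479 and 0.495). In the libraries numbered 3 the order was SIGLEC5 (71.3), SIGLEC1 (63.2), SIGLEC7 (50.8), SIGLEC14 (42.1), SIGLEC6 (33.7), SIGLEC10 (25.2), CD33 (15.5), SIGLEC9 (7.66), SIGLEC11 (6.46) and CD22 (0.389). SIGLEC1 thus moved from the last place but one to the second, and its share of the summed CPM of the 11 rows was 0.652% in the 4 libraries and 42.5% in the 2. SIGLEC12, a Siglec outside the set, exceeded every member on this scale, at 94.7 CPM per kilobase in numbers 1 and 2 and 155 in number 3.

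**Figure D2:**
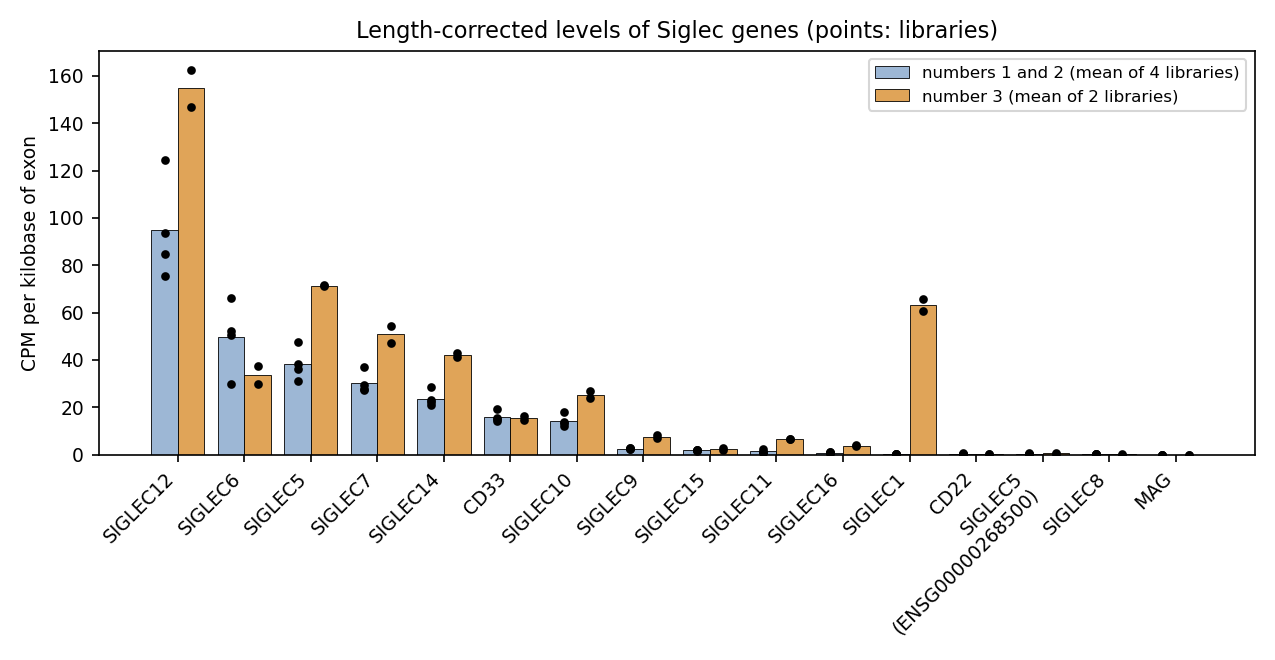
CPM per kilobase of exon for 16 Siglec rows, as the mean of the 4 libraries numbered 1 and 2 (blue) and of the 2 libraries numbered 3 (orange), with each library as a point. SIGLEC1 is near 0 (0.410) in blue and at 63.2 in orange, while CD33 stands at 16.1 and 15.5.

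The comparison of B2 with DMSO asks how the compound alters gene expression, and no Siglec gene passed its test. Of the 11 rows 0 had an edgeR adjusted p below 0.05, as did 0 of 17224 genes (0%), and 0 of the 11 had an unadjusted p below 0.05 (0.493% of all genes did). DESeq2 and limma-voom called 0 members as well, and 3 and 0 of all genes. The direction was negative in 9 rows and positive in 2, with a median log2 fold change of -0.12 beside -0.08 over all genes. With library totals as the only scaling SIGLEC5 turned to 0.03 and 8 rows were negative. The count of negative rows fell to 4 without B2 replicate 1 or without B2 replicate 2, and to 3 without DMSO replicate 3, so it gives no stable direction. In simulated counts for this comparison on 17224 genes the test recovered 30 of the 50 genes altered 8-fold. It recovered 7 of the 50 altered 4-fold and 0 of the 50 altered 2-fold, and called 1 unaltered gene. The simulated libraries had independent noise without a shift shared by the libraries numbered 3, and the model had no term for the replicate number.

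CD33 was the 1 receptor whose groups did not overlap. Its mean was 88.0 ± 1.99 CPM in the B2 group (SD, n = 3) and 102 ± 11.5 CPM in the DMSO group (SD, n = 3), where 1.63% of all tested genes were lower in every B2 library than in every DMSO library. In the other direction 0 members did not overlap, where 1.94% of all tested genes did not. Its log2 fold change was -0.21 (SE 0.23, 95% interval -0.74 to 0.32, edgeR adjusted p = 1.0), and the differences within numbers 1, 2 and 3 were -0.35, -0.12 and -0.14. The interval ends well within a 2-fold change on either side. Dropping DMSO replicate 1, the highest library on this scale, gave -0.10, and dropping DMSO replicate 2 gave -0.30. The TMM factor of DMSO replicate 1 was 0.86, where the other libraries had 0.99 to 1.07. With library totals as the only scaling the CD33 estimate was -0.12.

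The estimate for SIGLEC1 depended on how the replicate number was treated. Its mean was 161 ± 274 CPM in the B2 group (SD, n = 3) and 175 ± 298 CPM in the DMSO group (SD, n = 3), so the edgeR estimate of the log2 fold change was -0.12 (SE 2.14, 95% interval -5.03 to 4.796). With the replicate number as a block it was -0.11 (SE 0.24, interval -0.63 to 0.41). The differences within numbers 1, 2 and 3 were -0.14, -0.07 and -0.12. Without both libraries numbered 3 the estimate was -0.11 (SE 0.42). Leaving out 1 library of the pair unbalanced it, at -5.82 without B2 replicate 3 and 5.59 without DMSO replicate 3. It was also positive without B2 replicate 1 or B2 replicate 2 (0.48 each), and -0.66 and -0.67 without DMSO replicate 1 and DMSO replicate 2.

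For the other 8 receptors the intervals reached past a 2-fold change on at least 1 side in 4 (SIGLEC6, SIGLEC9, SIGLEC11 and CD22), and with the replicate block in 1 (CD22). SIGLEC5 was at -0.05 (95% interval -0.95 to 0.86), SIGLEC14 at -0.09 (-0.93 to 0.76) and their summed locus at -0.05 (-0.94 to 0.83). SIGLEC7 was at -0.19 (-0.98 to 0.60) and SIGLEC10 at -0.15 (-0.995 to 0.69). SIGLEC9 was at -0.09 (-1.50 to 1.32) and turned to 0.02 with the replicate block (-0.56 to 0.61) and 0.16 without both libraries numbered 3. SIGLEC11 was at -0.17 (-2.11 to 1.77), or -0.21 with the block (-0.89 to 0.48) and -0.48 without both libraries numbered 3 (SE 0.59). CD22 was at -0.35 (-1.17 to 0.47; with the block -0.32, -1.04 to 0.40), with 1.98 ± 0.127 CPM in B2 and 2.53 ± 0.665 CPM in DMSO (n = 3 each). SIGLEC6 was at 0.16 (-0.69 to 1.002; with the block 0.25, -0.34 to 0.85), with 120.3 ± 20.6 CPM in B2 and 108 ± 54.2 CPM in DMSO. ENSG00000268500 had the largest estimate, 1.20 (-0.48 to 2.87), but its differences within numbers 1, 2 and 3 were 1.55, -1.08 and 1.58, and its level rests on few counts. That estimate was 0.66 with limma-voom, 0.78 with the block, 0.29 with the block and without both libraries numbered 3, and 1.70 without B2 replicate 2, where the other libraries left out gave 0.80 to 1.30. Leaving out 1 library turned the sign of SIGLEC5, SIGLEC9, SIGLEC11 and SIGLEC14 (without B2 replicate 1, B2 replicate 2 or DMSO replicate 3), of SIGLEC7 and SIGLEC10 (without DMSO replicate 3) and of SIGLEC6 (without DMSO replicate 1 or DMSO replicate 3). The estimate for SIGLEC11 was -1.46 when B2 replicate 3 was dropped and 0.80 when DMSO replicate 3 was.

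With the block the SE was smaller in 10 of the 11 rows and still 0 were called, where 0% of all genes were. The smallest unadjusted p was 0.14 in the model without the block and 0.22 with it, both for ENSG00000268500 (edgeR). Members with 1 direction in all 3 pairs were SIGLEC1 and CD33, both lower with B2, or 18.2% of the rows where 15.8% of all tested genes had 1 direction.

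**Figure D3:**
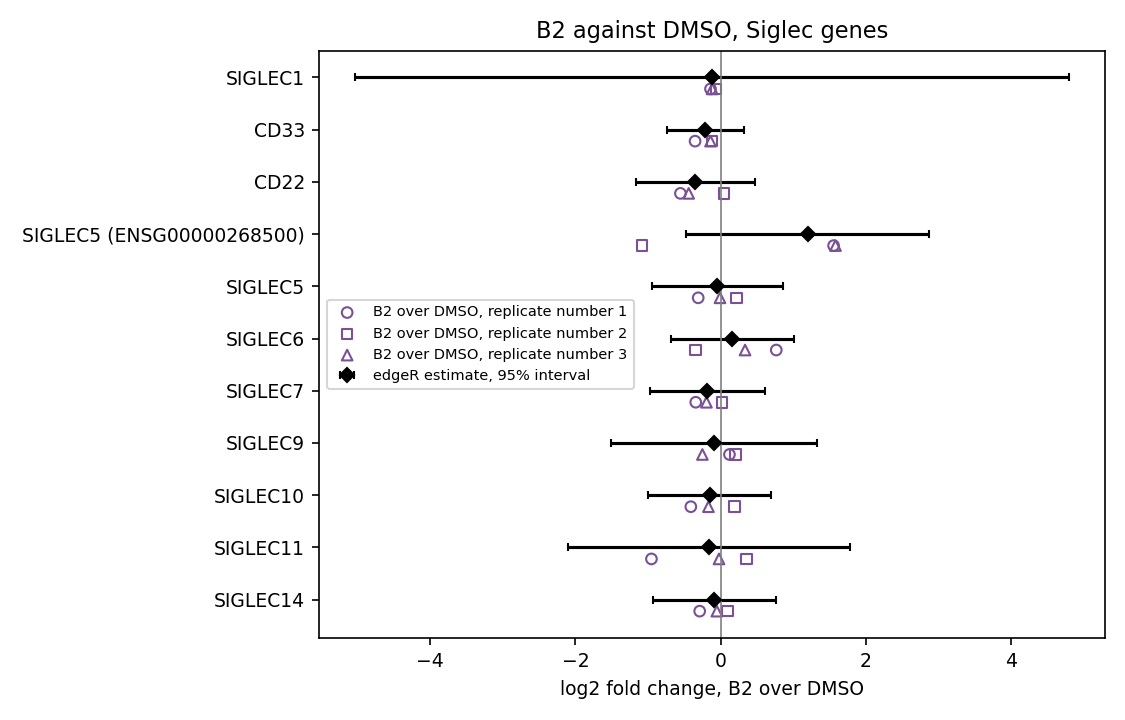
Log2 fold change of B2 over DMSO for the 11 Siglec rows, with the edgeR estimate and its 95% interval in black and the difference within each replicate number as open purple symbols. SIGLEC1 has the widest interval (-5.03 to 4.796) although its 3 differences lie between -0.14 and -0.07.

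The upstream bases of 2 further members are shown for comparison of a gene that was higher in the libraries numbered 3 (SIGLEC9) with one that was not (CD33). PU.1, the myeloid transcription factor encoded by SPI1, binds a core written here as GAGGAA, interferon response elements hold GAAA, any 2 bases and GAAA, and STAT factors bind sites with TTCNNNGAA. All 3 were searched on both strands in the 250 bases before each RefSeq start site, and matches to the PU.1 core (TTCCTC when read in reverse) are in capitals. Of the table's overlapping SIGLEC9 windows the one nearer the gene is shown. The windows are chr19:51124656-51124905 for SIGLEC9 and chr19:51224830-51225079 for CD33, both on the plus strand (RefSeq, GRCh38.p14).
SIGLEC9: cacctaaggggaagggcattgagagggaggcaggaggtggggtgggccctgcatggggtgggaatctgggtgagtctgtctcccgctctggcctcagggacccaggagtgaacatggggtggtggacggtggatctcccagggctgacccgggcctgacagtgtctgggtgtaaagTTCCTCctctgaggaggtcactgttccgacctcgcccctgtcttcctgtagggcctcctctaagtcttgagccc
CD33: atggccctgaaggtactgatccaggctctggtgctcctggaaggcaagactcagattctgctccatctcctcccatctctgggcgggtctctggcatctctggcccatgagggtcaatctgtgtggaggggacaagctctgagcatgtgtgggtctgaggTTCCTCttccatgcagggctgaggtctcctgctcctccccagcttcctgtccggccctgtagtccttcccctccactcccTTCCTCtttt
SIGLEC9 held 1 PU.1 core and CD33 held 2, all in the reverse orientation. Of the 10 symbols 9 were in the RefSeq promoter table, all but SIGLEC1. Several of these windows lie partly or wholly in GENCODE 29 exons (250 of 250 bases for SIGLEC5, 186 for SIGLEC6, 161 for SIGLEC10, 160 for SIGLEC7, 64 for SIGLEC14, 21 for CD22 and 16 for CD33). The CD33 match that starts 10 bases before the end of its window lies in such exon bases. Members were counted by symbol and the background by window, so the 2 shares are not in the same unit. Among the 9 symbols, CD33, SIGLEC6, SIGLEC7 and SIGLEC9 held the PU.1 core (4 of 9), which 23.6% of 35116 windows hold. The matches of SIGLEC6 and SIGLEC7 also lie in exon bases. None of the 9 held the interferon core, which 3.02% of windows hold. The STAT motif occurred in 1 (SIGLEC6) and in 6.57% of all windows.

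Genes that act with Siglecs were read from the same model. Of 12 signalling partners 0 passed the test (4 positive, 8 negative, median log2 fold change -0.11). TYROBP, the adaptor of SIGLEC14, read 31.3, 25.0 and 258 CPM across B2 replicates 1 to 3, against 55.6, 22.1 and 212 CPM across their DMSO counterparts, a log2 ratio of 2.81 between the libraries numbered 3 and the others. The Src family kinase gene FGR (0.97) was also higher in both libraries numbered 3, while SYK (-0.11), which acts below TYROBP, and the lipid phosphatase gene INPP5D (-0.05) were not. PTPN6, the main phosphatase of inhibitory Siglecs, had a log2 ratio of 0.40 and PTPN11 one of -0.83. For both genes the libraries numbered 3 overlapped the others. PTPN11 was highest in DMSO replicate 2, with 24.7, 33.6 and 24.4 CPM across B2 replicates 1 to 3, against 15.1, 86.6 and 20.4 CPM with DMSO. In all, 7 of 12 partners were above the other 4 libraries in both libraries numbered 3, beside the 12.3% of all tested genes.

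Genes that make, attach and remove sialic acid were read in the same way. None of 8 supply genes passed the test of B2 (3 positive, 5 negative, median log2 fold change -0.10), and 1 of them, the sialic acid lyase NPL, was higher in both libraries numbered 3 (log2 ratio 1.28), a share of 1 in 8 that is near the 12.3% of all tested genes. GNE, the enzyme that starts sialic acid synthesis, had a log2 ratio of -0.54, but the libraries overlapped. It read 34.9 and 33.5 CPM in replicate 3 of B2 and DMSO and 20.6 CPM in DMSO replicate 1. Of 20 sialyltransferase genes 11 were tested and 0 passed (3 positive, 8 negative, median -0.16). ST3GAL1 (log2 ratio 0.48) and ST3GAL5, the GM3 synthase (0.92), were the 2 of 11 that were higher in both libraries numbered 3, beside 12.3% of all tested genes. Of 4 sialidase genes the lysosomal NEU1 (345 CPM) and the membrane-bound NEU3 (51.4 CPM) were tested, and neither passed. Their log2 ratios were 0.13 and -0.52, and for both the libraries numbered 3 overlapped the others.

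Among 9 carriers of Siglec ligands 0 passed the test (5 positive, 4 negative, median log2 fold change 0.29), and 5 were higher in both libraries numbered 3, beside 12.3% of all tested genes. LGALS3BP, a secreted glycoprotein bound by several Siglecs, read 3.05, 3.34 and 36.9 CPM across B2 replicates 1 to 3, against 1.54, 0.631 and 33.2 CPM across their DMSO counterparts. SPN, which encodes the sialylated mucin CD43 (553 CPM), had a log2 ratio of -0.35 with overlapping libraries, and SELPLG (303 CPM) had one of 0.93. CD24, a ligand of SIGLEC10, was higher in every B2 library (4.58, 5.80 and 4.69 CPM) than in every DMSO library (1.27, 4.19 and 3.63 CPM), as were 1.94% of all tested genes. Its lowest value was in DMSO replicate 1, and its log2 fold change was 0.73 (SE 0.46, edgeR adjusted p = 1.0). CD24 is also an epithelial gene. A list of 8 epithelial markers summed to 30.1, 30.5 and 37.3 CPM in B2 replicates 1, 2 and 3, and to 3.33, 11.1 and 26.8 CPM in the DMSO replicates. All 8 had positive fold changes, 0 passed the edgeR test, and their part in the CD24 values was not tested.

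**Figure D4:**
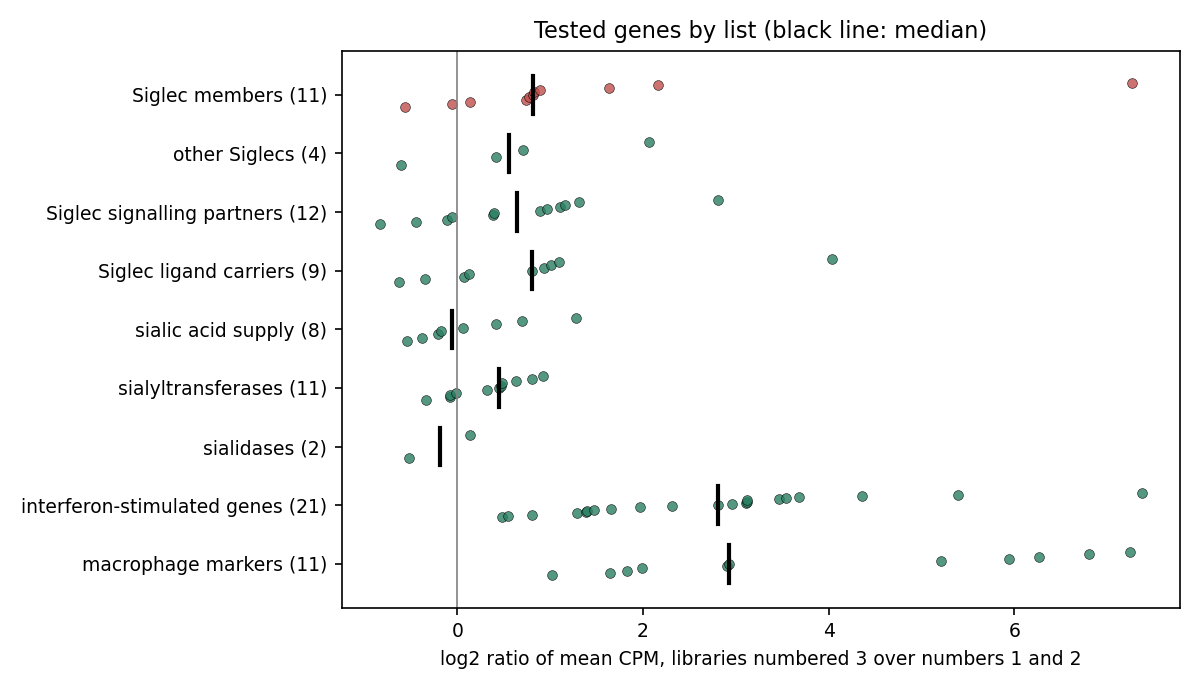
Log2 ratio of mean CPM in the 2 libraries numbered 3 over the 4 numbered 1 and 2 for the tested genes of 9 lists, 1 point per gene and the list median as a black line, with Siglec members in red. The Siglec median is 0.81, that of interferon-stimulated genes 2.81, that of macrophage markers 2.92 and that of the sialic acid supply genes -0.06.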

How the data were processed

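The deposited table held unnormalized estimated counts per Ensembl gene in 6 libraries. Per the submitters' processing notes HISAT2 2.0.4 was used; which counter, build, annotation or strand option followed is not given in the sources used here. All values were whole, so rounding changed nothing, but 4 occurred 6465 times against 3144 times for 3 and 2022 for 5, so small counts are less exact than they look. Symbols came from a gene name table that matched 60401 of 60612 identifiers. Positions, exon lengths and transcripts are from GENCODE 29 (GRCh38).

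Genes were kept with filterByExpr (minimum count 10), TMM-scaled and tested with edgeR 4.0.16 under R 4.3.3 (quasi-likelihood, treatment as the only term, Benjamini-Hochberg over 17224 genes, threshold 0.05). The SE is the estimate divided by the root of its F statistic. The test was checked on simulated counts. Closest genes used log2 CPM with a prior count of 2. A count of 3 is 0.0386 to 0.0537 CPM. Alternatives were RLE factors, library totals, 2 other filters, DESeq2 1.42.0, limma-voom 3.58.1, the block, counts divided by 4 and libraries left out.

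Libraries of the same number deviated together from their groups. The correlations across genes were 0.21, 0.40 and 0.50 for numbers 1, 2 and 3. Each was above 0.1, and on that ground, from the data and not the labels, the block was treated as a pairing. Deviations were taken from the mean of each group. A shift shared by both libraries numbered 3 therefore also raises the correlations of numbers 1 and 2, which cannot establish that these are pairs.

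The members and lists were chosen with earlier results of these data known. Named genes were all members, the other Siglecs, in each list the 2 with the highest mean and the 2 with the largest absolute log2 ratio of number 3 to the others, and the 3 closest genes of each member. The text prints part of these, and it also names genes outside the rule (SYK, INPP5D, PTPN6, FGR, GNE, NEU3, CD24, IFI6 and the lineage markers among them), chosen after their values were seen. Some genes under the rule are not reported here.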

Additional observations from a re-analysis of the deposited data

How the results depend on the processing

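Siglec rows called numbered 0 under all 17 alternatives, the replicate block among them, though the row ENSG00000268500 had no value with a minimum count of 50 and DESeq2 gave no p-value for SIGLEC1. The count of changed genes was 0 except with DESeq2 (3), without both libraries numbered 3 and with the replicate block (48), and with 1 library left out (0 to 1). For log2 fold changes, SIGLEC5 turned to 0.033 with library totals, and SIGLEC9 to 0.022 with the replicate block, 0.16 without both libraries numbered 3 and 0.16 with both changes. Leaving out 1 library gave -5.82 to 5.59 for SIGLEC1, -0.43 to 0.30 for SIGLEC5, -0.037 to 0.62 for SIGLEC6, -0.48 to 0.11 for SIGLEC7, -0.73 to 0.80 for SIGLEC9, -0.47 to 0.18 for SIGLEC10, -1.46 to 0.80 for SIGLEC11, -0.44 to 0.23 for SIGLEC14 and 0.80 to 1.70 for ENSG00000268500. For the log2 ratio of number 3 to the others it gave -0.12 to 0.10 for CD33, -0.10 to 0.39 for CD22, 0.80 to 1.07 for SIGLEC5, -0.23 to 1.62 for ENSG00000268500 and 1.498 to 1.75 for SIGLEC9. Of the fold changes recomputed 159 kept direction and side of the threshold and 23 turned. Summing SIGLEC5 and SIGLEC14 was chosen after seeing the data. The cause of the shifts was not tested.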

Other observations

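Markers of other cells that carry Siglecs were read beside the members. CD22 was accompanied by PAX5, the B cell transcription factor, at 9.16 to 18.5 CPM, while MS4A1, CR2 and BLK were at 0 counts in every library. The B cell list summed to 19.6 to 26.4 CPM and did not rise in the libraries numbered 3 (19.6 and 23.4 CPM). Beside SIGLEC6 and the low SIGLEC8 (0.0515 to 0.451 CPM), the mast cell tryptase gene TPSAB1 read 117 to 267 CPM, whereas CPA3 and FCER1A were at 0 counts. Beside SIGLEC7, the cytotoxic granule gene NKG7 read 169 to 376 CPM, with KLRD1 at 0 counts. Of 9 B cell genes 4 passed the filter and 3 were at 0 counts in every library. Of 6 basophil and mast cell genes 3 passed and 2 were at 0, and of 7 natural killer cell genes 3 passed and 1 was at 0. MAG, a Siglec of myelinating cells, was at 0 counts in all 6 libraries, and SIGLEC15, a Siglec of osteoclasts, read 5.37 to 9.68 CPM.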
